A study of Mus musculus with 8 samples.

Results

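The genes described here encode Mediator, the complex that relays signals from DNA-bound transcription factors to RNA polymerase II. They were taken from the deposited count table as every mouse gene named Med followed by a number, with or without a final l, plus Ccnc, Cdk8 and Cdk19. This gave 33 of the 37224 genes in the table. The rule uses gene names alone, but it was chosen with earlier results of these data known. Each library holds the RNA of a single MII oocyte, an egg ready for fertilization that waits in meiosis II, taken after superovulation: 4 from females with a conditional knockout of Setd1b (Setd1bGdf9cKO, labelled Knock Out) and 4 from control females. The cKO label carries the name of Gdf9, a growth factor gene of the oocyte, and does not spell out the Cre line. The labels give neither the age of the females, nor the alleles carried by the controls, nor the number of females. Oocytes may share a female, so they may not be independent replicates of the genotype. A p-value here reflects only how these 8 samples vary, part of which may be technical. SETD1B is an enzyme that methylates histone H3 at lysine 4, and the comparison asks which transcripts depend on it in the egg.

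Mediator is built from a head and a middle module that contact the polymerase, a tail that is met by many activators, and the subunit MED14, which runs through the complex as its backbone. A separable kinase module, made of CDK8 or CDK19 with cyclin C, MED12 and MED13 or their paralogs, binds the core reversibly and hinders its contact with the polymerase. The MII oocyte is transcriptionally silent, so its transcripts are a store laid down during growth. MED27, MED28, MED29 and MED30 were counted with the tail, where recent mammalian structures place them. Earlier schemes put these 4 subunits in the head, and counts under both are given.

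The promoters of the members with the largest rises and the largest fall, picked after their values were seen, are shown because the enzyme lost in the knockout acts on chromatin at promoters rich in CG dinucleotides. The RefSeq promoter table (GRCm38.p6) held an entry for 28 of the 33 members. Each line gives the 200 bases upstream of the transcript start, 5′ to 3′ on the gene's strand, with CG in capitals. RefSeq starts can lie some bases away from those of the counting annotation.
Med26 (chr8:72548311-72548510, minus strand): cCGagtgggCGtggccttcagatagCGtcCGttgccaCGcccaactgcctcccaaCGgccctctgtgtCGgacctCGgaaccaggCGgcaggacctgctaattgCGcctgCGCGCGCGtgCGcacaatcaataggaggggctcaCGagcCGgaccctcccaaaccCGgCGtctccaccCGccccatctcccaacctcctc
Med7 (chr11:46436747-46436946, plus strand): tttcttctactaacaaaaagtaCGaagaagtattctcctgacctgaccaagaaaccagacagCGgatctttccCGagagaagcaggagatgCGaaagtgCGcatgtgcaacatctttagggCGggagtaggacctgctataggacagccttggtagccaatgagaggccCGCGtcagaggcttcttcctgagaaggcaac
Med27 (chr2:29346610-29346809, plus strand): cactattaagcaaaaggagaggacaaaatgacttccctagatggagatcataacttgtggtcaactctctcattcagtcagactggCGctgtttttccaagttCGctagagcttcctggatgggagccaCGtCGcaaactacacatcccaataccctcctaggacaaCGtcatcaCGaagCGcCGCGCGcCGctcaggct
The capitals mark 20 CG in the Med26 stretch, 8 in that of Med7 and 11 in that of Med27. Over the full window of 300 bases, which also holds the first 50 transcribed bases, Med26 had 31 CG, and 10.6% of all 32851 entries had as many or more. Med7 had 13 CG, as 37.9% of entries did or more, and Med27 had 14, as 36.3% did or more. The motif CG reads the same on both strands, and 94.6% of entries held at least 1. The median number was 23.0 in the 8 members called higher below, 20.0 in the 7 called lower and 22.5 in 12 that were not called, against 7.0 over all entries. The entries were not limited to genes expressed in these oocytes, so 7.0 is not a background for expressed genes. The ranges of the called groups overlapped, from 12 to 34 in the members called higher and from 13 to 61 in those called lower. No chromatin was measured in these files, so the sequences are shown as a description only.

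Total assigned counts were 9488899 to 11313502 in the knockout libraries and 11029602 to 13519404 in the control libraries. Values are CPM, counts relative to the library's total after scaling for composition, and a level compared between genes is CPM per kilobase of annotated exon. Each value is relative to the rest of the same library; the RNA content of an oocyte was not measured. Setd1b itself stood at 2.97 to 5.06 CPM in knockout and 9.24 to 12.8 CPM in control libraries. Its log2 fold change was -1.44 ± 0.41, and its adjusted p of 0.0221 became 0.0519 without knockout replicate 3, 0.0540 without control replicate 2 and 0.0894 with library totals alone. The labels do not name the deleted exons. The 5 oocyte markers summed to 6456 to 9793 CPM in knockout and 6659 to 9955 CPM in control libraries. Most of the sum was Gdf9 and Bmp15, which were not called. Of the 5 markers 2 were called higher, Zp3 and Nlrp5 (log2 fold changes of 1.71 and 1.66), and 1 lower, Ooep (-0.86). That is 60% called, against 25.8% of all tested genes. Of 10 genes typical of the cumulus and granulosa cells around the egg, Amh, Inha, Foxl2, Ptx3 and Tnfaip6 had no count in any library. The sum of the 10 was 34.5 to 78.4 CPM in knockout and 74.9 to 110 CPM in control libraries, nearly all of it Cyp19a1, which was called lower in the knockout (log2 fold change -0.85). Of the 3 blood markers, Ptprc had no count and the sum ran from 0 to 0.0900 CPM in knockout and from 0 to 0.300 CPM in control libraries. Of the 3 oviduct markers, Krt8 had no count, and Ovgp1 had means of 0.186 CPM in knockout and 0.102 CPM in control oocytes. Epcam, at 2.98 CPM in knockout and 32.9 CPM in control oocytes, was called lower in the knockout (log2 fold change -3.46). The part of other cells in the results below was not tested.

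Mediator transcripts moved in both directions in Setd1b knockout oocytes. Of 33 members 32 passed the filter on low counts, and 8 were higher and 7 lower at an adjusted p under 0.05 in edgeR's quasi-likelihood test over 11066 genes. Over all tested genes 25.8% were called, 13.6% higher and 12.2% lower, while 46.9% of the tested Mediator genes were called. The groups did not overlap in 16 of the 32, against 31.3% of all tested genes, with knockout above control in 9 (17.7% of all genes) and below in 7 (13.6%). When testing was limited to genes reaching 10 CPM in 4 or more libraries, 38% of genes and 17 of 26 members were called. The called members thus split almost evenly by direction: Med26, Med7, Ccnc, Med17, Med6, Med14, Med28 and Med1 rose, and Med27, Med13l, Med31, Med20, Med13, Med10 and Med11 fell. The median log2 fold change (knockout over control) was 0.24 over the 32 members and 0.10 over all tested genes. Regardless of sign, the median was 0.67 over the members and 0.69 over all tested genes. Of the members that rose 6 differed by 2-fold or more, and of those that fell 1. The called members that rose had a median log2 fold change of 1.46, against 1.86 over all called genes that rose. For those that fell the medians were -0.73 and -0.97 in that order.

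The split depended on scaling. With library totals alone as the scaling, the median log2 fold change of all genes was 0.49 in place of 0.10, and 11 members were higher and 1, Med27, lower (over all genes 2382 and 504). With each library's trend over gene length removed, the median of all genes was -0.26, and 5 members were higher and 10 lower (974 and 2493). This removal also takes out each library's mean log2 CPM, and its effect was not split from that of length. No called member changed sign under either. Med26, Med7, Ccnc, Med17, Med14 and Med27 were called under every alternative listed in the methods, leaving out each library included.

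**Figure D1:**
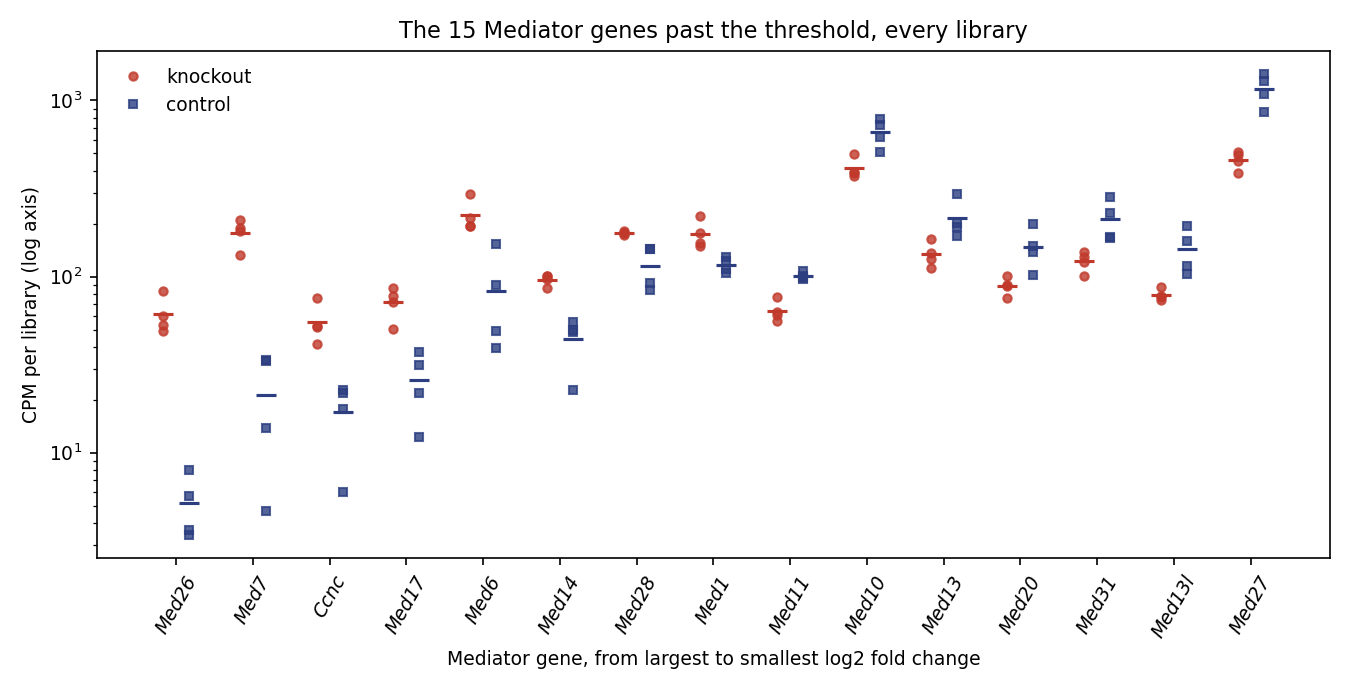
CPM (log axis) in each library for the 15 Mediator genes past an adjusted p of 0.05, with knockout oocytes as circles left of control oocytes as squares and horizontal lines at group means (n = 4 each). No group of 4 overlaps the other in any of the 15, and the gap is widest for Med26, at 48.8 to 82.8 CPM in knockout and 3.41 to 7.92 CPM in control libraries. Over all tested genes the groups did not overlap in 31.3%. The 15 were picked by a test on these same values, so the lack of overlap is no further support.

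In control oocytes the members called higher stood mostly below those called lower. The 8 that rose had a median of 136 CPM in knockout and 34.8 CPM in control oocytes, and the 7 that fell a median of 122 CPM in knockout and 212 CPM in control oocytes. The same held over all called genes, with medians of 28.8 CPM in knockout and 8.19 CPM in control oocytes for those that rose, and 97.6 and 186 CPM in the same order for those that fell. The control level enters the fold change by which genes were called higher or lower, so part of this difference in control level is built in. These medians are of CPM not divided by gene length. Within the complex the order of levels was uneven. Per kilobase, Med10 led in both groups, at 479 CPM per kilobase in knockout and 765 in control oocytes. Med6 came next in the knockout, at 155 in knockout and 57.1 in control oocytes. Med27 was at 139 in knockout and 350 in control oocytes, and Med30 at 130 and 175 in that order. At the other end 7 members stayed under 10 CPM in every library: Med9, Med16, Med25, Med29, Med12, Med12l and Cdk19. Summed over the 33 members, knockout libraries held 3298 to 3725 CPM and control libraries 3636 to 4740 CPM, so the sums overlapped.

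Positions below are those of each gene in mm10. In the middle module, which links the polymerase-binding parts of the complex to the backbone, 3 of 9 members rose and 2 fell. That is 55.6% called, against 25.8% of all tested genes. Med26 had the largest change of any member. Its product docks elongation factors onto Mediator. Med26 (ENSMUSG00000045248, chr8:72494558-72548310, minus strand) was at 59.3, 52.8, 48.8 and 82.8 CPM in the knockout libraries (replicates 1 to 4, as in all such lists) and 3.64, 5.68, 7.92 and 3.41 CPM in the control libraries. Every knockout library was at least several times above every control library. Knockout over control, the log2 fold change was 3.55 ± 0.34 (SE, n = 4 per group; adjusted p = 6.09e-05), an 11.7-fold difference that rested on 2918 counts in knockout and 234 in control libraries. Left-out libraries moved it between 3.36 and 3.83.

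Med7 (ENSMUSG00000020397, chr11:46436925-46442721, plus strand), whose product forms the elongated hinge of the middle module with MED21, was at 133, 188, 181 and 209 CPM in knockout libraries and 33.2, 4.64, 13.7 and 33.5 CPM in control libraries. The control libraries spread widely, but none came near the lowest knockout library. On the log2 scale the fold change was 3.07 ± 0.49 (adjusted p = 0.00121). Its partner Med21 had 204 to 254 CPM in knockout and 81.2 to 195 CPM in control libraries. These groups did not overlap either, but Med21 did not pass the test (log2 fold change 0.63 ± 0.24, adjusted p = 0.0775). It was called higher with library totals alone (1.05, adjusted p = 0.00424), with at least 10 CPM in 4 libraries (0.77, 0.0157), with voom (0.72, 0.0382) and without control replicate 1 (0.78, 0.0489), and stood at 0.034 with the length trend removed (0.939).

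Med1 (ENSMUSG00000018160, chr11:98152154-98193293, minus strand), whose product is the docking site of nuclear receptors, was at 149, 176, 221 and 155 CPM in knockout libraries and 105, 111, 129 and 123 CPM in control libraries. The groups lay close together without overlap, and the log2 fold change was 0.58 ± 0.18 (adjusted p = 0.0314). That call was lost without knockout replicate 2 (adjusted p = 0.0779), knockout replicate 3 (0.102), control replicate 1 (0.0791) or control replicate 2 (0.0748), and with the length trend removed (0.0699).

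Med10 (ENSMUSG00000021598, chr13:69809882-69816094, plus strand), the most abundant member per kilobase, fell. It was at 372, 391, 499 and 389 CPM in knockout libraries and 725, 619, 506 and 788 CPM in control libraries. Knockout replicate 3 and control replicate 3 nearly met. Its log2 fold change was -0.68 ± 0.18 (adjusted p = 0.0165), with an adjusted p of 0.0523 without knockout replicate 1 and 0.0565 without knockout replicate 2. Med31 (ENSMUSG00000020801, chr11:72211724-72215592, minus strand), whose product is a small subunit held by the end of MED7, was at 100.02, 121, 129 and 138 CPM in knockout libraries and 230, 168, 166 and 285 CPM in control libraries. All knockout libraries were below all control libraries, with a log2 fold change of -0.80 ± 0.21 (adjusted p = 0.0157, and 0.0528 without knockout replicate 1). Med7 and Med31, whose products touch, thus differed in opposite directions. Neither fall was called when libraries were scaled by their totals alone, at -0.27 (adjusted p = 0.173) for Med10 and -0.39 (0.125) for Med31.

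The other middle members did not pass. Med9 was at 2.71, 4.45, 1.71 and 1.03 CPM in knockout libraries and 0.331, 1.12, 1.57 and 0 CPM in control libraries. The groups overlapped and the counts were few, 125 in knockout and 36 in control libraries, and the log2 fold change of 1.68 ± 1.02 did not pass the test (adjusted p = 0.253). Med4 and Med19 had log2 fold changes of 0.23 ± 0.20 and 0.25 ± 0.26, and both were negative with the length trend removed (-0.40 and -0.37). With library totals alone Med4 was called higher (0.62, adjusted p = 0.0291).

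**Figure D2:**
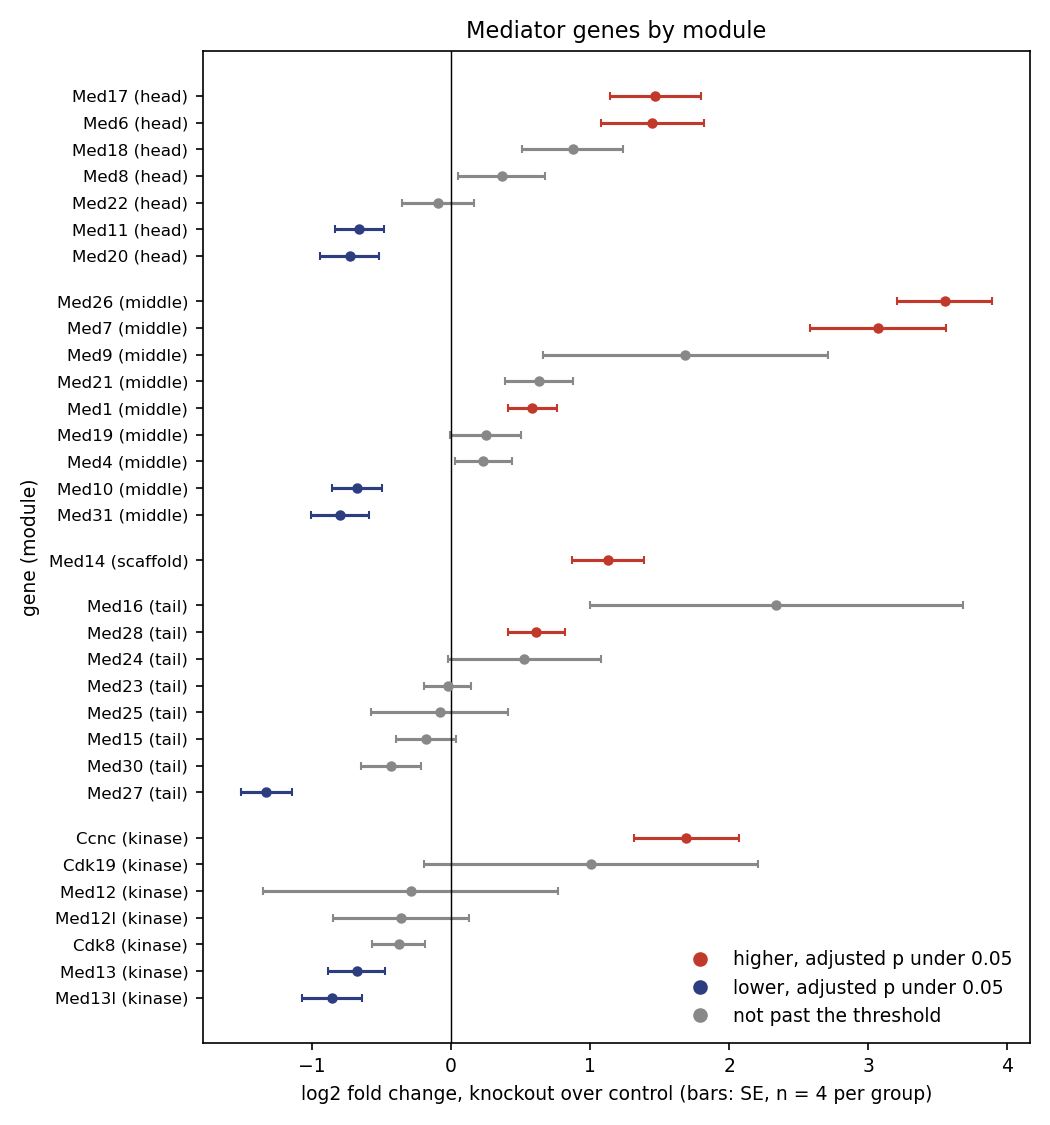
Log2 fold change of knockout over control for the 32 tested Mediator genes by module, with bars of 1 SE (n = 4 per group) and colours for the call at an adjusted p under 0.05. Calls in both directions stand in the head, middle, tail and kinase modules, from 3.55 for Med26 to -1.33 for Med27.

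In the head module, which binds the polymerase and its initiation factors, 2 of 7 members rose and 2 fell. That is 57.1% called, against 25.8% of all tested genes. Med17 (ENSMUSG00000031935, chr9:15260352-15279867, minus strand), the central subunit of the head, was at 71.5, 77.9, 50.6 and 85.9 CPM in knockout libraries and 12.2, 31.4, 37.5 and 21.9 CPM in control libraries. The groups were clearly apart, with a log2 fold change of 1.47 ± 0.33 (adjusted p = 0.00734). Med6 (ENSMUSG00000002679, chr12:81573557-81595008, minus strand), a conserved head subunit next to the middle module, was at 195, 216, 295 and 194 CPM in knockout libraries and 153, 48.8, 39.0 and 89.6 CPM in control libraries. Control replicate 1 came close to the knockout libraries. The log2 fold change was 1.45 ± 0.37 (adjusted p = 0.0141). It was 1.92 without control replicate 1, and 0.84 with the length trend removed, where it did not pass (adjusted p = 0.0891).

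Med20 (ENSMUSG00000092558, chr17:47611582-47624418, plus strand), which forms the movable jaw of the head with MED18 and MED8, fell, at 100.02, 75.9, 88.3 and 89.2 CPM in knockout libraries and 102, 198, 137 and 149 CPM in control libraries. Knockout replicate 1 and control replicate 1 stood next to each other. Knockout over control, the log2 fold change was -0.73 ± 0.21 (adjusted p = 0.0250). The adjusted p was 0.0855, 0.0538 and 0.0578 without knockout replicates 2, 3 and 4 and 0.0758 without control replicate 2.

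Med11 (ENSMUSG00000018923, chr11:70451919-70453727, plus strand), a small subunit that pairs with MED22, was at 55.8, 63.0, 60.6 and 76.4 CPM in knockout libraries and 108, 101, 96.6 and 98.1 CPM in control libraries. Both groups were narrow and apart. On the log2 scale the fold change was -0.66 ± 0.18 (adjusted p = 0.0176, and 0.0602 and 0.0559 without knockout replicates 1 and 2). With library totals alone Med20 stood at -0.34 (adjusted p = 0.299) and Med11 at -0.27 (0.296), so neither fall was called there.

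The remaining head members did not pass the test. Med18, beside MED20 in the jaw, was at 34.3, 48.2, 20.2 and 20.4 CPM in knockout libraries and 10.7, 17.6, 14.8 and 24.0 CPM in control libraries. The groups overlapped, and the log2 fold change of 0.88 ± 0.36 did not pass (adjusted p = 0.0975). Med18 was called higher with library totals alone (1.29, adjusted p = 0.0261) and with at least 10 CPM in 4 libraries (1.02, 0.0437). Med8 and Med22 had log2 fold changes of 0.36 ± 0.31 and -0.09 ± 0.26. Whether partners differed from each other in their change was not tested.

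Med14 (ENSMUSG00000064127, chrX:12675369-12762073, minus strand), the backbone, rose. It was at 96.8, 100.1, 86.6 and 101 CPM in knockout libraries and 55.3, 49.4, 48.3 and 22.7 CPM in control libraries. The knockout libraries lay within a narrow range above all control libraries. Its log2 fold change was 1.13 ± 0.26 (adjusted p = 0.00856), and 0.91 without control replicate 4, the lowest library.

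The tail held the largest fall. Med27 (ENSMUSG00000026799, chr2:29346819-29524793, plus strand), a subunit that ties the tail to the head, was at 387, 455, 511 and 491 CPM in knockout libraries and 1283, 1084, 857 and 1417 CPM in control libraries. The highest knockout library was well below the lowest control library. The log2 fold change was -1.33 ± 0.18 (adjusted p = 0.000534), from 22137 counts in knockout and 49716 in control libraries. It was -0.92 with library totals alone (adjusted p = 0.000902) and the only member's fall called there. Med28 (ENSMUSG00000015804, chr5:45520221-45529276, plus strand) had 176, 177, 180 and 172 CPM in knockout libraries and 143, 92.2, 83.7 and 143 CPM in control libraries. The knockout libraries were nearly equal and above all 4 control libraries, yet the call was the weakest of the 15, with a log2 fold change of 0.61 ± 0.20 (adjusted p = 0.0450). It was lost without knockout replicates 1, 2, 3 or 4 (adjusted p of 0.0819, 0.0931, 0.0848 and 0.0786) and without control replicates 2 or 3 (0.115 and 0.103). It was lost too with median-of-ratios scaling (0.0635) and with the length trend removed, where the log2 fold change was 0.28 (adjusted p = 0.430).

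The other tested tail members did not pass. Med15, met by the lipid regulators of the SREBP family, had a log2 fold change of -0.18 ± 0.22, Med23 had -0.02 ± 0.17, Med24 had 0.53 ± 0.55 and Med25 had -0.08 ± 0.49. Med23 had 107 to 145 CPM in knockout and 108 to 131 CPM in control libraries, ranges that overlapped. Med30 stood at -0.43 ± 0.22 on the same scale (adjusted p = 0.168). With the length trend removed Med30 was called lower (-1.03, adjusted p = 0.0125), as was Med15 (-0.61, 0.0317), while Med15 stood at 0.20 with library totals alone (0.600). Med16 was at 5.64, 2.26, 0.0900 and 3.17 CPM in knockout libraries and 0, 0.480, 1.65 and 0 CPM in control libraries. The groups overlapped, and its log2 fold change of 2.34 ± 1.34 rested on 140 counts in knockout and 26 in control libraries (adjusted p = 0.225).

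Med29 failed the filter on low counts and was not tested. It had 0.977, 0.830, 0.720 and 0.746 CPM in knockout libraries and 0, 0, 0 and 0.100 CPM in control libraries. In all this was 40 counts in knockout and 1 in control libraries, a ratio of 36.1 after scaling with a 95% exact interval of 6.12 to 1461 that covers counting error only. By the structural scheme 1 of 8 tested tail members rose and 1 fell. That is 25% called, which is near the 25.8% of all tested genes and so no result about the tail. By the earlier scheme none of 5 tail members passed, and in the head 3 of 10 tested members rose and 3 fell (60% called). Both calls in the tail thus belong to the 4 subunits whose assignment differs.

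In the kinase module 1 of 7 members rose and 2 fell (42.9% called, against 25.8% of all tested genes). The share of all genes was 38% when testing was limited to those reaching 10 CPM in 4 or more libraries. So few members give no result about the module. Ccnc (ENSMUSG00000028252, chr4:21727701-21759922, plus strand), which encodes cyclin C, the activating partner of CDK8 and CDK19, was at 51.9, 75.6, 52.0 and 41.6 CPM in knockout libraries and 5.95, 22.8, 21.8 and 17.6 CPM in control libraries. The groups did not overlap, with control replicate 1 the lowest. Knockout over control, the log2 fold change was 1.69 ± 0.38 (adjusted p = 0.00750), and 1.41 without that library. The kinase gene Cdk8 had 115 to 166 CPM in knockout and 133 to 200 CPM in control libraries. The ranges overlapped and the log2 fold change of -0.38 ± 0.19 did not pass (adjusted p = 0.172). Cdk8 was called lower with the length trend removed (-0.77, adjusted p = 0.0216) and stood at 0.023 with library totals alone (0.942). Cdk19, its paralog, was at 6.16, 6.95, 1.44 and 1.31 CPM in knockout libraries and 0, 0.0800, 2.81 and 5.01 CPM in control libraries. Libraries of the same group differed more than the groups did (log2 fold change 1.01 ± 1.20).

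Med13 and Med13l, paralogs whose products join the kinase module to the core, both fell. Med13 (ENSMUSG00000034297, chr11:86267033-86357602, minus strand) was at 112, 135, 163 and 126 CPM in knockout libraries and 202, 192, 169 and 296 CPM in control libraries. The highest knockout and lowest control library were close. On the log2 scale the fold change was -0.68 ± 0.21 (adjusted p = 0.0306). The adjusted p was 0.0942, 0.0798 and 0.0777 without knockout replicates 1, 2 and 4, and 0.0721 without control replicate 4. Med13l (ENSMUSG00000018076, chr5:118560719-118765435, plus strand) was at 87.3, 77.4, 76.2 and 73.2 CPM in knockout libraries and 115, 158, 193 and 103 CPM in control libraries. The knockout libraries were narrow and below all control libraries. Its log2 fold change was -0.86 ± 0.22 (adjusted p = 0.0131), also called with each library left out. With library totals alone neither was called, at -0.27 (adjusted p = 0.272) for Med13 and -0.49 (0.178) for Med13l. Med12, the subunit that activates the kinase, and its paralog Med12l did not pass, at -0.29 ± 1.06 and -0.36 ± 0.49. Med12 had only 132 counts in knockout and 150 in control libraries and none in control replicate 1.

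The balance within each of the 3 paralog pairs of the kinase module was compared inside each library, which needs no scaling between libraries. The log2 ratio of Cdk8 to Cdk19, per length, was 6.02 ± 1.45 (SD, n = 4) in knockout and 8.85 ± 3.30 in control oocytes. Cdk8 thus exceeded Cdk19 in every library, and the difference did not pass the test (exact two-sided permutation test, p = 0.229, adjusted p = 0.686). The ratio of Med13 to Med13l was 0.54 ± 0.30 in knockout and 0.38 ± 0.74 in control oocytes (exact p = 0.686, adjusted p = 0.714). That of Med12 to Med12l was -0.80 ± 1.35 in knockout and -1.82 ± 3.00 in control oocytes (exact p = 0.714, adjusted p = 0.714). In control replicate 1, where Med12 had 0 counts, that ratio of -6.17 was set by the pseudocount, and without this library the difference of knockout minus control was -0.43 in place of 1.02. Cdk19 likewise had 0 counts in control replicate 1 and 1 in control replicate 2, so the control mean of its ratio rests on the pseudocount there. The difference for Cdk8 to Cdk19 was -1.74 without control replicate 1, against -2.83 with all libraries. For Med13 to Med13l it was -0.11 without control replicate 3, against 0.16 with all libraries. The smallest p that 4 against 4 libraries allow is 0.0286, or 0.0857 after adjustment over the 3 pairs if a single pair reached it.

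The share of each module in the summed CPM per kilobase of the complex was set out by library as a description. The head made up 18.7% ± 0.921 (SD, n = 4) in knockout and 11.5% ± 1.08 in control oocytes, and the tail 23.6% ± 2.28 and 31.6% ± 2.14 in that order. The middle module held 52.9% ± 2.22 in knockout and 52.5% ± 2.91 in control oocytes, and the kinase module 4.15% ± 0.329 and 4.22% ± 0.610. Few genes carried these shares. Med10 had the largest, 29.2% ± 2.38 of the sum in knockout and 37.6% ± 1.98 in control oocytes, within a middle module of nearly equal share. Med27 alone was 8.51% ± 0.379 of the sum in knockout and 17.2% ± 1.32 in control oocytes, and Med6 9.47% ± 1.44 and 2.72% ± 1.49. Under the earlier assignment the head stood at 37.3% ± 1.12 in knockout and 38.5% ± 1.24 in control oocytes and the tail at 5.01% ± 1.19 and 4.51% ± 1.55, and both ranges overlapped. The difference in head and tail share thus depended on where MED27 to MED30 are placed.

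**Figure D3:**
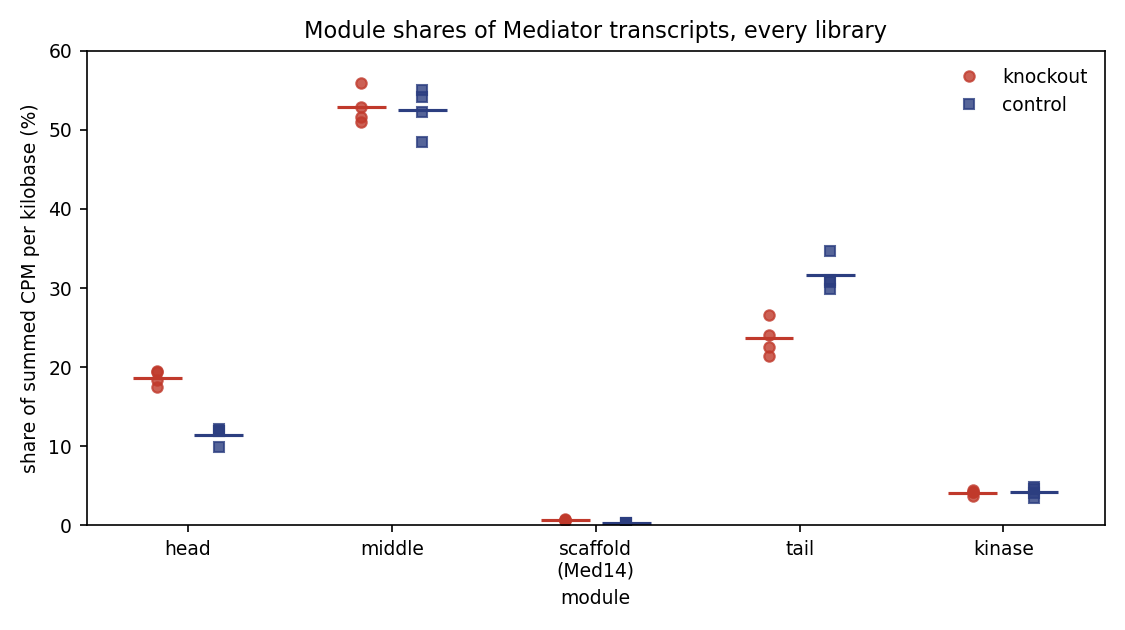
Share of each module in the summed CPM per kilobase of the 33 Mediator genes, in percent, with knockout libraries as circles left of control libraries as squares and lines at group means (n = 4 each). The head shares of knockout libraries lie above those of control libraries and the tail shares below, with MED27 to MED30 counted in the tail.

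Other parts of the transcription machinery, from lists written beside the Mediator list, are given for context. Of 11 tested subunits of RNA polymerase II, 3 rose and 1 fell (36.4% called, against 25.8% of all tested genes). When testing was limited to genes reaching 10 CPM in 4 or more libraries, 38% of genes were called. The 36.4% is thus no result about the list. Polr2d, a subunit of the polymerase stalk, had 1573 ± 217 CPM in knockout and 440 ± 98.4 CPM in control oocytes (SD, n = 4; log2 fold change 1.84). Polr2c, a subunit of the polymerase's assembly core, had 181 ± 31.0 CPM in knockout and 290 ± 25.7 CPM in control oocytes (log2 fold change -0.68), a call lost with library totals alone (-0.29, adjusted p = 0.272). Of 14 tested genes of the factors TFIIB, TFIIE, TFIIF and TFIIH, 8 rose and 0 fell (over all tested genes 13.6% rose and 12.2% fell), with a median log2 fold change of 1.11. With the length trend removed, 4 of these 8 calls were lost: Gtf2b (0.58, adjusted p = 0.0826), Gtf2h2 (0.76, 0.0969), Ercc3 (0.80, 0.0807) and Mnat1 (0.17, 0.656). The groups overlapped in Ccnh, and Ercc3 was also not called without knockout replicate 1 (adjusted p = 0.0654). Gtf2e2, a TFIIE subunit, had 148 ± 8.50 CPM in knockout and 49.6 ± 13.8 CPM in control oocytes.

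Of 15 tested elongation factors 1 rose and 3 fell, or 26.7% called, which is near the 25.8% of all tested genes and so no result about the list. Ell2, a member of the super elongation complex that MED26 can recruit, had 34.4 ± 4.56 CPM in knockout and 11.5 ± 4.83 CPM in control oocytes (log2 fold change 1.58, adjusted p = 0.00734). Mllt3, a reader protein of that complex, fell, with 265 ± 32.3 CPM in knockout and 525 ± 45.4 CPM in control oocytes (log2 fold change -0.98, adjusted p = 0.00109). MED26 is also known to work with the little elongation complex at small nuclear RNA genes. Of its subunits Ice1 and Zc3h8 fell, with log2 fold changes of -0.91 and -0.87, and Ice2 did not pass (-0.45, adjusted p = 0.0624). These genes were picked from the list after their values were seen. Of the other Ell and Eaf genes in the list, Ell (-0.12, adjusted p = 0.790) and Eaf1 (0.66, 0.488) did not pass. Ell3, Eaf2 and Mllt1 were not tested. Aff1 (0.30, adjusted p = 0.518), Aff4 (0.75, 0.315), Cdk9 (0.14, 0.833), Ccnt1 (0.14, 0.848) and Ccnt2 (-0.35, 0.159), also in the list, did not pass. The fall of Zc3h8 was lost without knockout replicates 2 or 4 (adjusted p of 0.0602 and 0.0502) and with library totals alone (0.144).

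The authors' deposited table, which lists 2709 genes up to an adjusted p of 0.009996, held 13 members. These were the 15 called here at an adjusted p under 0.05, without Med1 and Med28. At an adjusted p under 0.01, 5 members were higher and 1 lower here, against 747 and 644 of all genes. In the authors' deposited table the shrunken log2 fold changes were 3.36 for Med26, 2.76 for Med7 and -1.35 for Med27, and all 13 had the sign found here. That table was made from the same libraries, so it is no independent check.

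**Figure D4:**
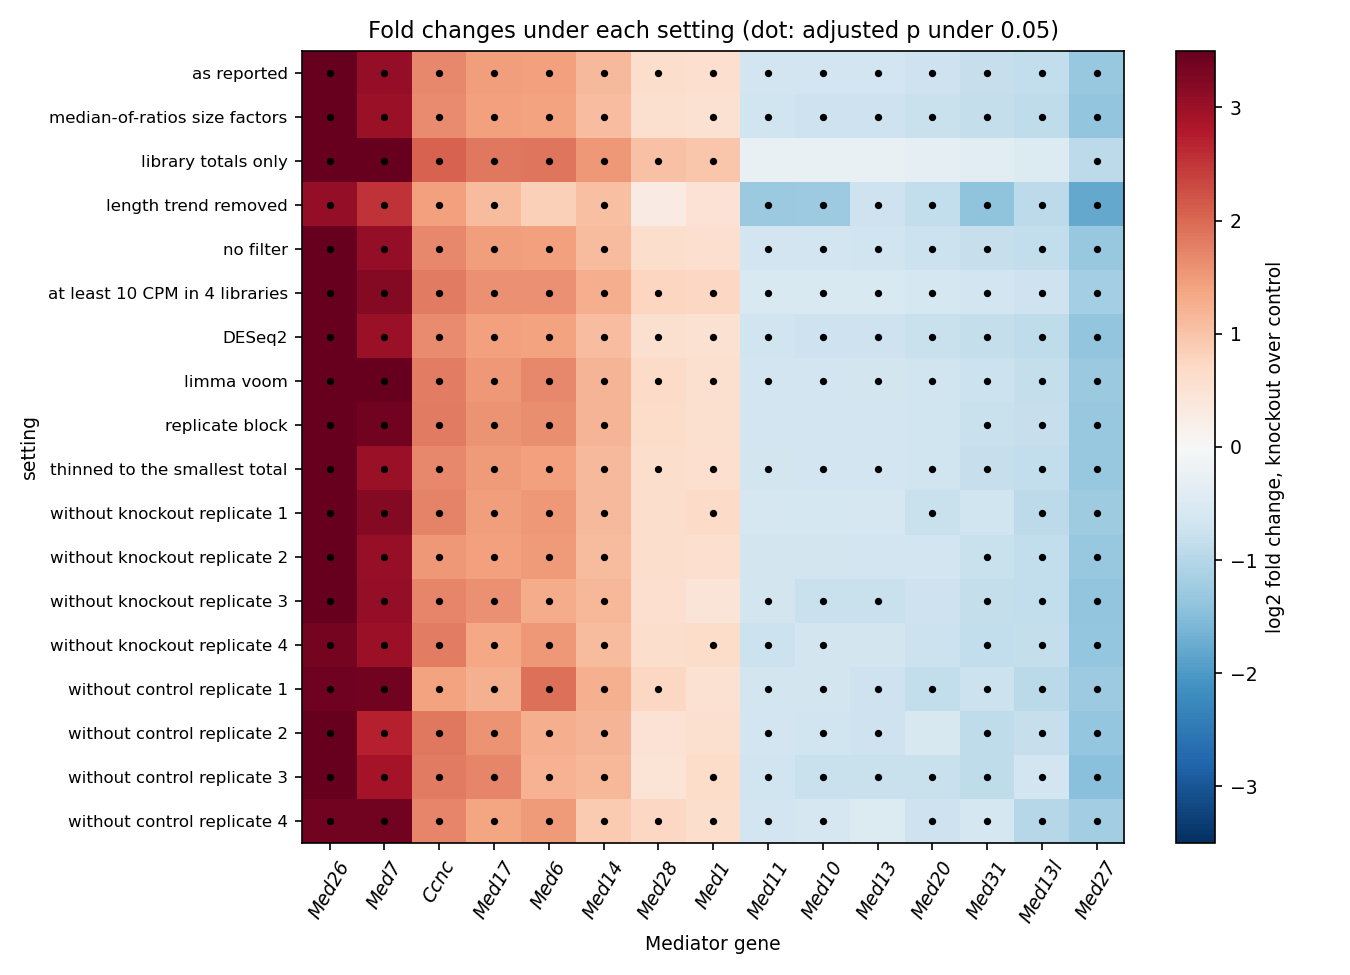
Log2 fold change (colour) of the 15 called Mediator genes under the reported fit and each alternative, with a dot where the adjusted p was under 0.05. The columns of Med26, Med7, Ccnc, Med17, Med14 and Med27 carry a dot in every line, while Med28, with an adjusted p of 0.0450 as reported, loses its dot in most.

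Exons of 12 members overlapped another gene of the counting annotation, and the libraries do not mark the strand, so reads there cannot be assigned by strand. The partner genes of called members (for Med20, Med31, Med27, Med13 and Ccnc) had at most 0.808 CPM in either group's mean. The largest of these overlaps, 26.3% of Med31 and 21.4% of Med20, were with partners that had no counts. A low partner count does not show how reads in the shared exons were assigned, so an effect on the members is not excluded. The abundant partners were Zdhhc5, over 11.9% of Med19, and Tm7sf3, over 1.19% of Med21, and both of these members were not called.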

How the data were processed

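RNA of 8 single oocytes was made into cDNA with SMARTer Ultra Low reagents and read from a single end, per the labels' protocols. That kit primes on poly(A) tails, so a short tail can lower a level, and adds no molecular identifiers, so amplified copies count as reads. The build listed is mm10 and the tools are GSNAP, featureCounts (1.4.4) and DESeq2 (1.3.79), per the submitters' processing notes. Per the file headers, the authors' deposited counts used Ensembl 69 gene models, reads of mapping quality 1 or more and no strand setting. The authors' deposited comparison table gives log2 fold changes, their standard errors and test statistics (a score), p-values, a normalized signal and RPKM; only its fold changes and p-values were set beside the results.

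All 8 count columns held whole numbers of 0 or more. Differential expression was fitted under R 4.3.3 by the quasi-likelihood method of edgeR (4.0.16; TMM, filterByExpr, genotype as the only term) and adjusted by Benjamini-Hochberg over 11066 genes at 0.05, and the fit was tested on simulated data (a first criterion, on the share of 4-fold genes with the right sign, was not met and was then replaced by the sign of the called genes). The SE is the log2 fold change divided by the square root of F. Alternatives were median-of-ratios factors, library totals only, removal of a length trend (loess, span 0.5), DESeq2 (1.42.0), limma voom (3.58.1), a filter of 10 CPM in 4 libraries or none, the replicate number as a block, thinning to 9488899 counts, an adjusted p of 0.01, and each library left out. The length trend was not centred within a library, so its removal also took out the library's mean log2 CPM. Paralog ratios used a pseudocount of 0.5 counts and 70 assignments (scipy 1.17.1). All members are named; values per library are given for each called member and for the uncalled tested member with the largest change in each module, and of other lists the called member with the smallest p per direction. Ice1, Ice2, Zc3h8, Ell, Eaf1, Aff1, Aff4, Cdk9, Ccnt1, Ccnt2, Gtf2b, Gtf2h2, Ercc3, Cdk7, Ccnh and Mnat1 were described after their values were seen. The members and lists were chosen with earlier results of these data known.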

Additional observations from a re-analysis of the deposited data

Results flagged for a closer look

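In each group of 4 libraries, the gap between the outermost library and its neighbour was compared with the group's range for every member. Of 66 such groups 3 passed the limit of 0.829, and chance gives about 1 in 20. Med8 was at 41.9 CPM in knockout replicate 3, with the other knockout libraries between 30.5 and 31.3 CPM. Med10 was at 499 CPM in the same library, with the others between 372 and 391 CPM. Med29 was at 0.100 CPM in control replicate 4, a single count, and at 0 in the other control libraries. Med8 was not called, and the fall of Med10 was called with knockout replicate 3 left out.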

How the results depend on the processing

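Of the values for single members, 265 kept direction and side of the threshold outside the left-out libraries, 27 lost their call, 9 gained one and 13 changed sign; with libraries left out these were 222, 23, 1 and 10. With library totals only, the higher and lower counts were 11 and 1 for Mediator and 2382 and 504 for all genes; 5 middle members were higher, and 0 head, 0 middle and 0 kinase members lower. With the length trend removed they were 5 and 10, and 974 and 2493; 1 head and 0 tail members were higher and 3 tail members lower. At an adjusted p under 0.01 they were 5 and 1, and 747 and 644, with 1 head and 0 tail members higher and 0 head, 0 middle and 0 kinase members lower. Median-of-ratios factors and no filter each left 0 tail members higher, and moving MED27 to MED30 to the head left 0 higher and 0 lower. No pairing by replicate number was seen, with deviation correlations of -0.0753, -0.0313, -0.159 and -0.0634, and 0 knockout libraries correlated best with their own number. Such weak correlations between single oocytes cannot decide whether libraries of the same number share a batch. With the replicate number as a block, 6 members were higher and 3 lower, 861 genes in all were lower, 0 tail members were higher, and 0 head, 1 middle and 1 kinase members lower. With each library left out, the ranges were 6 to 8 members higher and 3 to 7 lower, 1012 to 1597 genes higher and 837 to 1244 lower, 0 to 2 head, 0 to 2 middle and 1 to 2 kinase members lower, 2 to 3 middle members and 0 to 1 tail members higher. The paralog differences ran from -3.82 to -1.74 for Cdk8 to Cdk19, -0.43 to 1.79 for Med12 to Med12l and -0.11 to 0.46 for Med13 to Med13l.

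Sign changes occurred only in members not called in the reported fit. With the length trend removed Med8 stood at -0.14, Med4 at -0.40 and Med19 at -0.37. With library totals only Med22 stood at 0.29, Med15 at 0.20, Med23 at 0.37, Med25 at 0.29, Med12 at 0.072, Med12l at 0.047 and Cdk8 at 0.023. With at least 10 CPM in 4 libraries Med22 stood at 0.035 and Med23 at 0.10, and with voom Med12 at 0.43. With libraries left out Med22 ran from -0.24 to 0.064, Med23 from -0.14 to 0.027, Med25 from -0.25 to 0.13 and Med12 from -0.76 to 0.068. The cause of these shifts was not tested. A floor of 3 counts was 0.225 to 0.331 CPM, and members under 10 CPM carry wide errors.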

Other observations

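The kinase of the general factor TFIIH, a second kinase with a cyclin that acts at promoters, can be set beside the kinase module of Mediator. These genes were picked after their values were seen. Cdk7 had 112 ± 10.5 CPM in knockout and 49.0 ± 14.9 CPM in control oocytes (SD, n = 4; log2 fold change 1.19, edgeR adjusted p = 0.00413), and it was called under every alternative run. Its cyclin Ccnh had 25.5 ± 12.3 CPM in knockout and 6.40 ± 4.28 CPM in control oocytes (log2 fold change 1.99, adjusted p = 0.0122 with overlapping groups, and 0.0556 without knockout replicate 2). The assembly factor Mnat1 rose by 0.72 on the log2 scale (adjusted p = 0.0394), a call lost with 6 of the 8 libraries left out in turn, at adjusted p-values up to 0.113 (without knockout replicate 3). It was also lost with median-of-ratios factors (0.0511), no filter (0.0627), and the length trend removed, where the log2 fold change was 0.17 (0.656). In Mediator's kinase module the cyclin gene Ccnc rose while Cdk8 did not pass, though it was called lower with the length trend removed (-0.77, adjusted p = 0.0216). The difference between Cdk7 and Cdk8 in their change was not tested.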
